A study of Mus musculus with 8 samples.

Results

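The Hippo pathway and the genes that its effectors YAP and TAZ switch on through TEAD factors were followed in Lacun3, a cell line of mouse lung adenocarcinoma. The members were 36 genes listed by name, of 56884 annotated genes in the count table: 21 components of the pathway and 15 genes known as YAP-TEAD targets. They were taken by gene symbol. Messenger RNA was sequenced from 4 libraries of the parental line (STK11 WT) and 4 of a CRISPR-made Stk11 knockout of it (STK11 KO), all grown without treatment in DMEM with 10% serum and taken in logarithmic growth. Stk11 encodes LKB1, the kinase that activates AMPK and the MARK, SIK and NUAK kinases. The labels name 1 parental and 1 edited line and do not say whether the edited line is a single clone, so every difference below is one between these lines, and the p-values measure the spread between cultures of them.

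In the Hippo pathway, the kinases MST1 and MST2 with their scaffold SAV1 activate the kinases LATS1 and LATS2, which work with MOB1. LATS kinases phosphorylate YAP and TAZ, which are then kept in the cytoplasm or degraded. When the kinases are idle, YAP and TAZ enter the nucleus, bind TEAD factors and raise genes of matrix, adhesion and growth, some of which (LATS2, AMOTL2, AJUBA and PTPN14) act back on the pathway. LKB1 has been placed upstream of the pathway through MARK kinases and cell polarity in other systems. YAP is controlled mostly through its phosphorylation and location, which RNA counts do not measure.

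Library totals ran from 18837263 to 21101904 counts in parental and from 21441601 to 25715008 in knockout libraries, so that 1 count was worth 0.0388 to 0.0515 CPM (counts per 1000000 of the scaled library). The targeted gene came down in each knockout library without being lost. Stk11 stood at 64.9, 67.1, 68.4 and 64.7 CPM in parental and 35.4, 35.1, 33.5 and 35.0 CPM in knockout libraries (log2 fold change -0.93 ± 0.06, SE; edgeR adjusted p = 2.03e-12; exact permutation test, two-sided p = 0.0286, the smallest possible with n = 4 per group). Counts of knockout replicate 3, the deepest library, lay farther from the other knockout libraries (chi-square per degree of freedom 14.2 to 20.7) than any other pair of a group did (3.27 to 9.62), and this library had the highest knockout value in 21 of the 32 tested members. The 6 epithelial markers summed to 9309 to 9794 CPM in parental and 8010 to 8961 CPM in knockout libraries. Within that sum Krt7 fell 3.72-fold (means 1181 and 317 CPM), Krt18 and Epcam fell, Krt19 rose, and Cdh1 and Krt8 did not pass. Of 5 alveolar markers Sftpc and Sftpa1 had no count and Nkx2-1 and Sftpb had 1 count each, so these were absent or at the edge of detection. The alveolar list summed to at most 1.81 CPM. Nearly all of it was Napsa, which was low but counted in each library (means 1.32 and 1.07 CPM) and did not pass. The 7 fibroblast markers summed to 3.92 to 5.72 CPM and 2.03 to 3.07 CPM, with Col1a2 and Lum at 0. Most of that was Col1a1, which fell from a mean of 3.68 to 2.32 CPM, and Col3a1 fell from 74 counts to 3. Of 5 endothelial markers (1.05 to 1.85 and 3.42 to 4.81 CPM) Kdr and Emcn were at 0, and nearly all of the sum was Cdh5, which rose 3.03-fold (means 1.36 and 4.17 CPM). The 6 leukocyte markers summed to 46.3 to 52.9 CPM and 12.9 to 25.3 CPM, nearly all of it Cd68, with Adgre1 at 0 and Ptprc and Itgam at 1 count each. The part of these marker differences in the results below was not tested. Fewer cells that express a gene and less RNA per cell cannot be told apart in such bulk libraries.

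The targets were lower in the knockout line and the components were mixed. Of 15 targets, 12 had enough counts to be tested, and these 12 all fell; their median was -1.02 on the log2 scale (knockout over parental), from -4.54 for Ccn2 to -0.22 for Myof. Of 21 components, 20 were tested, of which 6 rose, 9 fell and 5 did not pass; the median was -0.03, from -2.52 for Amot to 0.90 for Amotl1. Over all 13707 tested genes 68% were called (edgeR's quasi-likelihood test, adjusted p below 0.05), 34.4% higher and 33.6% lower, and the median was 0.01. A call by itself is thus common in this comparison, and the counts of 12 lower and 0 higher targets stand beside shares of lower and higher genes that are nearly equal. Members and their classes were chosen with earlier results of these data known, so the counts set beside these shares are a description and no test. Library by library, the median difference of the targets from their parental means was -0.98, -1.08, -1.04 and -1.01 in knockout replicates 1 to 4 (log2, with 0.5 CPM added), and that of the components was -0.07, -0.06, 0.05 and -0.02. The targets' median was thus about equally low in each knockout library.

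The sizes differed between the classes as well. Of the 12 tested targets 6 fell at least 2-fold, where 9.41% of all tested genes fell by that much, and of the 20 tested components 3 did (Amot, Amotl2 and Tead3). No member rose 2-fold, where 7.02% of tested genes did. The median absolute log2 fold change was 1.02 in targets, 0.37 in components and 0.37 in all tested genes. Parental and knockout values did not overlap in 12 of 12 tested targets and 14 of 20 tested components, beside 60.6% of tested genes. Groups that lie apart, as given for single genes below, are thus common in this comparison. Leaving out the 5 genes known both as components and as targets (Lats2, Amotl2, Frmd6, Ajuba and Ptpn14), 11 of 11 tested targets fell with a median of -1.29, and of 17 components 6 rose and 7 fell with a median of -0.01. Of the 4 tested genes known as both, 3 fell and 1, Frmd6, did not pass (log2 fold change 0.01). Frmd6 is counted among the components here, and counted as a target it would be the 1 that did not fall. The 32 tested members exceeded the filter on low counts in every parental and every knockout library.

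**Figure D1:**
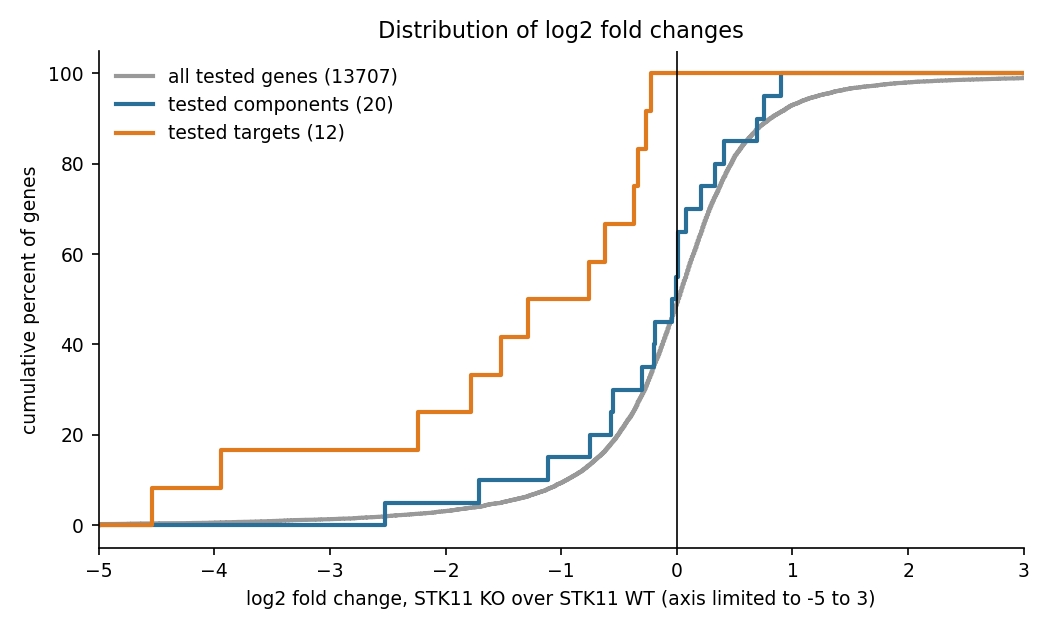
Cumulative percent of genes (y axis) by log2 fold change, knockout over parental (x axis), for all tested genes (grey), tested components (blue) and tested targets (orange). The curve of the targets reaches 100 percent below 0, at -0.22, while that of the components crosses 0 close to the curve of all genes.

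**Figure D2:**
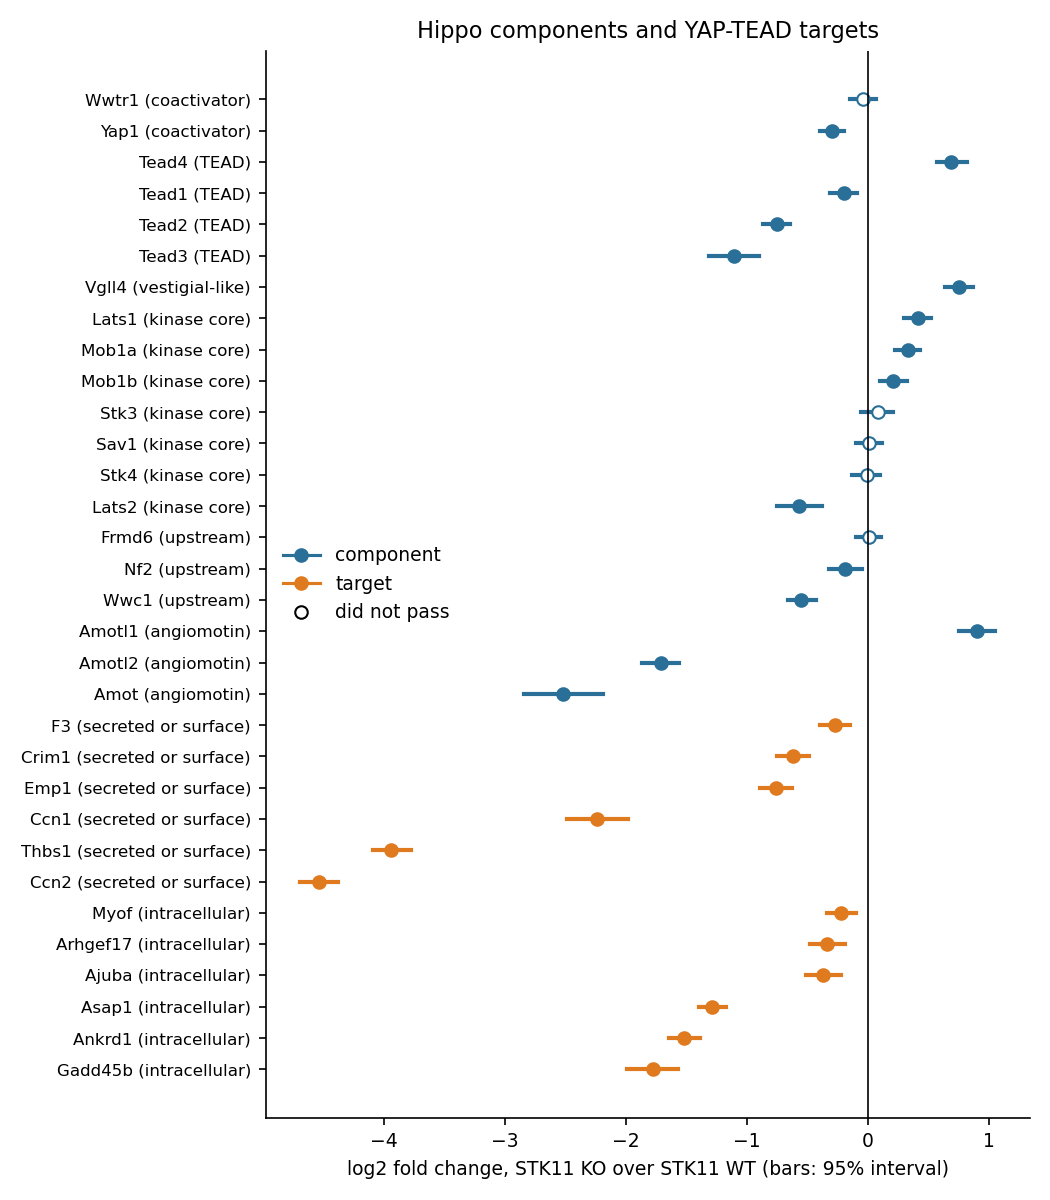
Fitted log2 fold change of each of the 32 tested members (points) with its 95% interval (bars), ordered by role, components in blue and targets in orange, and open points for genes that did not pass. The orange points all lie left of 0, and the blue ones lie on both sides between -2.52 and 0.90.

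The pair of coactivators changed little at the RNA level. Yap1 (chromosome 9, 7932000 to 8004597, minus strand, GRCm39), which encodes YAP, was at 183, 180, 174 and 174 CPM in parental and 145, 144, 148 and 141 CPM in knockout libraries. Its groups did not overlap, and it fell 1.23-fold (log2 fold change -0.30 ± 0.05, SE; edgeR adjusted p = 1.28e-05). Wwtr1 (chromosome 3, 57363070 to 57483331, minus strand), which encodes TAZ, was at 182, 189, 188 and 182 CPM in parental and 186, 182, 165 and 186 CPM in knockout libraries. These values overlapped, and the 95% interval of its log2 fold change was -0.15 to 0.07 (edgeR adjusted p = 0.494); scaled by library size alone it was -0.13 with an adjusted p of 0.0275. Per kilobase of exon, TAZ mRNA was the more abundant of the pair in both lines, at 38.8 ± 0.763 against 19.2 ± 0.468 CPM per kb (SD, n = 4) for Yap1 in parental and 37.7 ± 2.12 against 15.6 ± 0.315 in knockout libraries. Together they gave 57.9 ± 0.85 and 53.3 ± 1.86 CPM per kb, without overlap between the lines.

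The 4 TEAD genes, which encode the DNA-binding partners, moved apart. Tead4 (chromosome 6, 128201251 to 128277786, minus strand) was at 42.9, 46.9, 49.3 and 47.3 CPM in parental and 73.0, 72.3, 80.1 and 75.2 CPM in knockout libraries. Tead4 was the TEAD gene that rose, by 1.61-fold (log2 fold change 0.69 ± 0.06, SE; edgeR adjusted p = 8.21e-10). Tead2 (chromosome 7, 44865177 to 44883068, plus strand) was at 82.3, 81.7, 79.6 and 86.1 CPM against 49.6, 48.9, 50.7 and 46.5 CPM, a fall of 1.68-fold (-0.75 ± 0.06; edgeR adjusted p = 5.29e-11). Tead3 (chromosome 17, 28550645 to 28569791, minus strand), the least abundant of the 4 per kilobase, was at 15.8, 15.9, 15.8 and 16.5 CPM against 7.09, 6.22, 8.35 and 7.83 CPM and fell 2.16-fold (-1.11 ± 0.10; edgeR adjusted p = 1.20e-09). Tead1 (chromosome 7, 112278525 to 112506014, plus strand) was at 194, 205, 218 and 193 CPM against 165, 178, 182 and 180 CPM, a small fall of 1.15-fold (-0.20 ± 0.05; edgeR adjusted p = 0.00273). In each of the 4 genes the lines did not overlap, as in 60.6% of all tested genes.

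Summed per kilobase of exon, the TEAD genes gave 47.4 ± 1.23 CPM per kb in parental and 45.2 ± 1.61 CPM per kb in knockout libraries (SD, n = 4), with ranges of 45.8 to 48.7 and 43.9 to 47.5 that overlapped. The make-up of that sum differed between the lines. Tead4 went from 27.3% ± 0.877 to 46.2% ± 0.664 of it and Tead2 from 36.3% ± 1.65 to 22.6% ± 0.896 (SD, n = 4). Tead1 went from 31.4% ± 1.32 to 28.7% ± 0.932, and Tead3 from 5.02% ± 0.148 to 2.42% ± 0.243. In each library the order by level per kilobase was Tead2, Tead1, Tead4 and Tead3 in the parental line and Tead4, Tead1, Tead2 and Tead3 in the knockout line. These shares rest on exon lengths of all annotated isoforms and not of those the cells use.

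**Figure D3:**
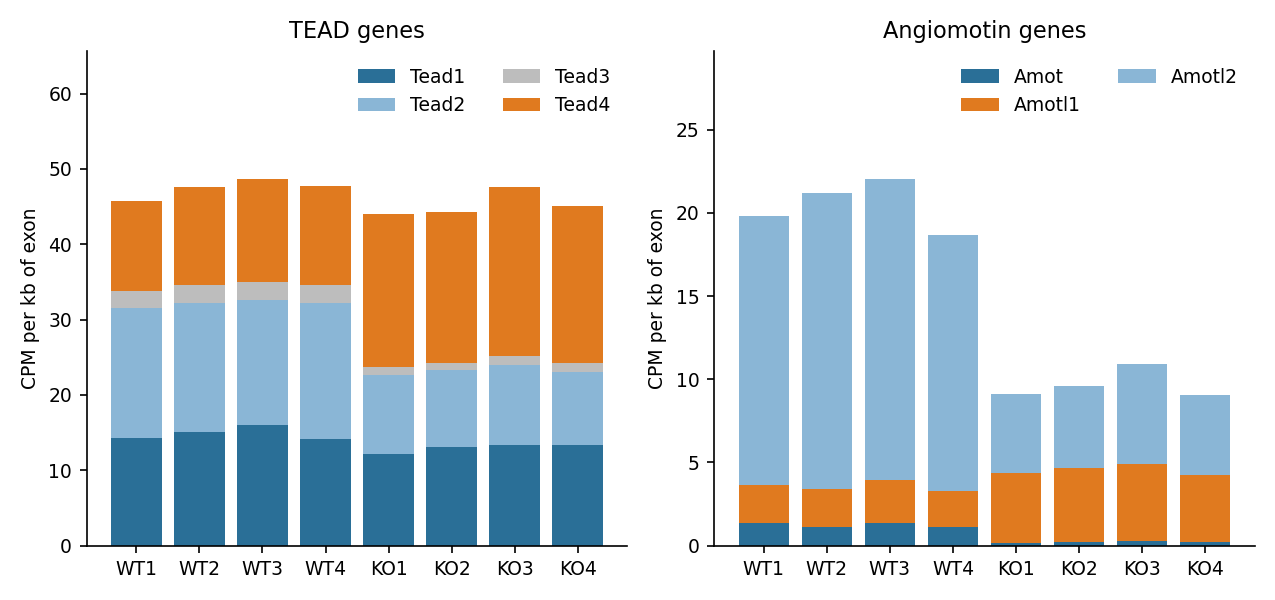
Level per kilobase of exon (y axis, CPM per kb, stacked by gene) in each library (x axis, WT1 to WT4 for the parental and KO1 to KO4 for the knockout replicates) for the 4 TEAD genes and the 3 angiomotin genes. The TEAD columns of the lines overlap in height while the Tead4 part grows from 27.3% to 46.2%, and the angiomotin columns fall from a mean of 20.4 to 9.67 CPM per kb as the Amotl2 part shrinks.

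Among the vestigial-like cofactors, which bind TEADs in competition with YAP, Vgll4 was higher in the knockout line. VGLL4 is known as a TEAD corepressor. Its gene (chromosome 6, 114837589 to 114946955, minus strand) was at 45.8, 46.5, 46.7 and 43.3 CPM in parental and 77.1, 76.7, 77.5 and 76.2 CPM in knockout libraries, a rise of 1.69-fold (log2 fold change 0.75 ± 0.05, SE; edgeR adjusted p = 3.77e-11). Vgll3 had 0 counts in all 8 libraries, where 3 counts over all of them would be 0.0174 CPM.

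The kinase core was present in both lines and moved by less than 1.5-fold in every member. The 7 genes split into 3 that rose, 1 that fell and 3 that did not pass (median 0.08 on the log2 scale). That is 57.1% called, beside 68% of all tested genes. Lats1 rose from 79.3 ± 1.17 to 105 ± 4.86 CPM (SD, n = 4; log2 fold change 0.41 ± 0.05, SE; edgeR adjusted p = 4.51e-07), whereas Lats2, which is also a YAP-TEAD target, fell from 16.4 ± 1.23 to 11.1 ± 0.70 CPM (-0.57 ± 0.09; edgeR adjusted p = 7.47e-06). The groups of both genes were apart. Lats1 made up 82.2% ± 1.09 of LATS mRNA per kilobase in parental and 90.1% ± 0.68 in knockout libraries (SD, n = 4), and the LATS sum went from 13.2 ± 0.246 to 16.0 ± 0.673 CPM per kb. In the annotation used for lengths, 42.4% of the Lats2 exon length is shared with the same-strand gene Gm49361, which had 0 counts, so reads there may have been lost to Lats2.

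The MOB1 genes, whose proteins activate LATS, were higher in the knockout line. Mob1a rose from 266 ± 2.32 to 333 ± 10.4 CPM (SD, n = 4; 1.25-fold; edgeR adjusted p = 4.49e-06) and Mob1b from 73.8 ± 3.14 to 85.4 ± 2.96 CPM (1.16-fold; edgeR adjusted p = 0.00165). Scaled by library size alone, Mob1b did not pass (log2 fold change 0.13, adjusted p = 0.051). The MST kinase genes and their scaffold did not pass. Stk4 (MST1) had a 95% interval of its log2 fold change of -0.13 to 0.10, Stk3 (MST2) one of -0.06 to 0.21 and Sav1 one of -0.10 to 0.12. Per kilobase these 3 stood at 9.45 ± 0.181, 6.84 ± 0.512 and 27.8 ± 0.784 CPM per kb in parental libraries (SD, n = 4). Of the Sav1 exon length 25.4% overlaps Atl1 on the opposite strand, a gene with 1033 counts in all libraries beside 25396 for Sav1.

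Of the 3 genes that feed into the core from the cell cortex, Wwc1 showed the larger fall. Wwc1, which encodes the scaffold KIBRA, went from 221 ± 6.61 to 151 ± 10.9 CPM (SD, n = 4; log2 fold change -0.55 ± 0.06, SE; edgeR adjusted p = 1.05e-08) with no overlap. Nf2, which encodes the tumour suppressor merlin, was at 109, 115, 109 and 112 CPM in parental and 86.0, 96.2, 114 and 94.0 CPM in knockout libraries. Knockout replicate 3 lay within the parental values of Nf2 and the other 3 knockout libraries below them. Nf2 passed (-0.19 ± 0.07; edgeR adjusted p = 0.0164) but gave an adjusted p of 0.0768 without knockout replicate 1 and 0.059 without knockout replicate 4. Frmd6, whose product willin is a relative of fly Expanded, did not pass, with a 95% interval of -0.10 to 0.11.

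The angiomotins, junction proteins that hold YAP in the cytoplasm and help activate LATS, changed most among the components. Amotl2 (chromosome 9, 102593871 to 102610617, plus strand), also a well-known target, was at 102, 112, 114 and 96.9 CPM in parental and 30.0, 31.0, 37.7 and 30.3 CPM in knockout libraries, a fall of 3.28-fold (log2 fold change -1.71 ± 0.07, SE; edgeR adjusted p = 3.71e-15). Amot (chromosome X, 144229421 to 144288177, minus strand) was at 11.3, 9.59, 11.4 and 9.22 CPM against 1.14, 1.79, 2.21 and 1.99 CPM and fell 5.73-fold (-2.52 ± 0.16; edgeR adjusted p = 2.55e-12). Amotl1 (chromosome 9, 14453262 to 14556352, minus strand) went the other way, from 22.9, 22.6, 26.0 and 21.7 CPM to 42.4, 44.7, 46.8 and 40.3 CPM, a rise of 1.87-fold (0.90 ± 0.07; edgeR adjusted p = 2.15e-10). All 3 genes had groups that did not overlap, as in 60.6% of all tested genes. As shares of the angiomotin sum per kilobase, Amotl2 went from 82.6% ± 1.04 to 52.9% ± 1.52 and Amotl1 from 11.3% ± 0.529 to 44.9% ± 1.78 (SD, n = 4), while the sum itself went from 20.4 ± 1.49 to 9.67 ± 0.863 CPM per kb.

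**Figure D4:**
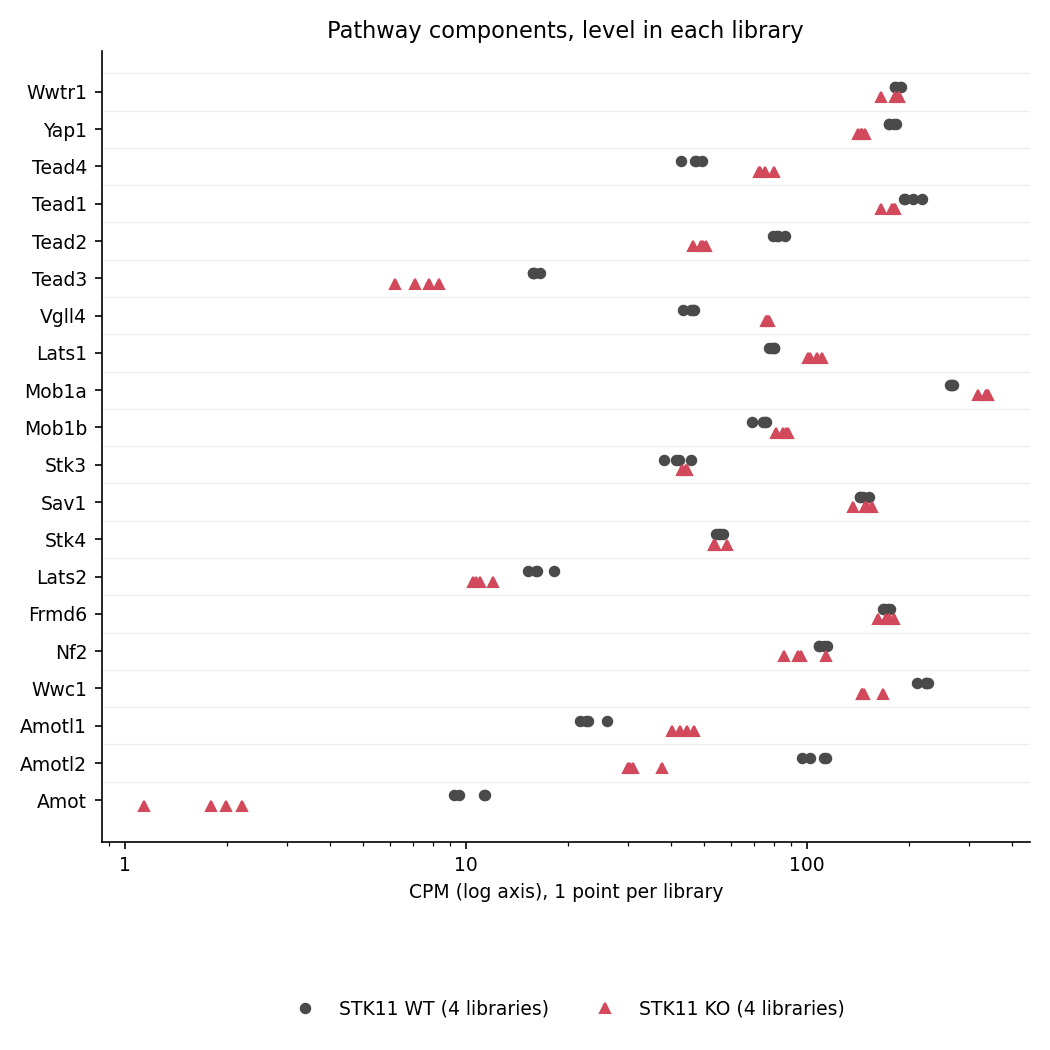
Level of the 20 tested components (y axis) in CPM on a log axis (x axis), with 1 grey circle per parental and 1 red triangle per knockout library. Amot, Amotl2 and Tead3 show the widest gaps to the left and Amotl1, Vgll4 and Tead4 the widest to the right, while the circles and triangles of Wwtr1, Stk3, Stk4, Sav1 and Frmd6 mix.

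The secreted and surface targets held the strongest falls. Ccn2 (CTGF), a matricellular protein of the CCN family and among the most used readouts of YAP activity, lies on chromosome 10 from 24471340 to 24474581 on the plus strand. It was at 481, 446, 453 and 459 CPM in parental and 21.5, 19.9, 16.4 and 21.6 CPM in knockout libraries, which left 4.3% of the parental level (log2 fold change -4.54 ± 0.07, SE; edgeR adjusted p = 3.73e-22). Its relative Ccn1 (CYR61; chromosome 3, 145352731 to 145355736, minus strand) was at 400, 381, 409 and 369 CPM against 105, 79.2, 64.7 and 83.3 CPM, which left 21.2% (-2.24 ± 0.12; edgeR adjusted p = 9.20e-09). Ccn1 kept the wider spread of the pair in the knockout line, with an SD of 16.4 CPM on a mean of 82.9 CPM. Thbs1 (chromosome 2, 117942357 to 117957614, plus strand), which encodes the matrix glycoprotein thrombospondin-1, was at 213, 219, 190 and 189 CPM against 14.7, 12.2, 12.1 and 14.1 CPM, which left 6.53% (-3.94 ± 0.08; edgeR adjusted p = 2.55e-21). Per kilobase, Ccn1 (193 ± 9.08 CPM per kb) and Ccn2 (161 ± 5.24) were the most abundant targets after Emp1 in parental libraries (SD, n = 4). In knockout libraries Ccn1 was at 41.1 ± 8.14 and Ccn2 at 6.94 ± 0.844 CPM per kb. Of the Ccn2 exon length 23.2% overlaps Gm15270 on the opposite strand, which had 486 counts beside 40263 for Ccn2.

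The other secreted and surface targets fell by less. Emp1, an epithelial membrane protein and the target with the highest level per kilobase, went from 3304 ± 106 to 1949 ± 118 CPM (SD, n = 4; log2 fold change -0.76 ± 0.06, SE; edgeR adjusted p = 2.88e-10). Crim1, a membrane-bound regulator of BMP ligands, went from 86.4 ± 2.11 to 56.2 ± 5.26 CPM (-0.62 ± 0.06; edgeR adjusted p = 1.07e-08). Crim1 overlaps the opposite-strand gene Fez2 over 123 bases of exon, and Fez2 had 10467 counts. F3, which encodes tissue factor, the starter of coagulation, kept 82.8% of its parental level (-0.27 ± 0.06; edgeR adjusted p = 0.000355). Parental and knockout values were apart in each of these genes.

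The 6 tested intracellular targets fell as well, from 29.1% to 86% of the parental level. Ankrd1 (chromosome 19, 36089361 to 36097499, minus strand), an ankyrin-repeat cofactor that with Ccn1 and Ccn2 forms the usual trio of YAP readouts, was at 70.1, 72.8, 73.8 and 70.2 CPM in parental and 24.2, 25.3, 24.4 and 26.5 CPM in knockout libraries, a fall of 2.86-fold (log2 fold change -1.52 ± 0.06, SE; edgeR adjusted p = 8.41e-16). Gadd45b (chromosome 10, 80765907 to 80768038, plus strand), a stress-induced growth regulator, was at 28.1, 26.9, 31.0 and 27.9 CPM against 9.76, 9.14, 6.41 and 8.06 CPM, a fall of 3.44-fold (-1.78 ± 0.10; edgeR adjusted p = 5.49e-13). Asap1 (chromosome 15, 63958706 to 64254768, minus strand), an ARF GTPase-activating protein of focal adhesions, was at 116, 117, 112 and 108 CPM against 47.2, 43.2, 49.3 and 45.9 CPM, a fall of 2.44-fold (-1.29 ± 0.06; edgeR adjusted p = 6.14e-15). The lines did not overlap in any of these 3 genes; Gadd45b varied more between knockout libraries (SD 1.47 CPM on a mean of 8.34) than Ankrd1 (1.07 on 25.1) or Asap1 (2.57 on 46.4) did for their level. Smaller falls were those of Ajuba, a LIM protein that restrains LATS (88.7 ± 4.06 to 68.7 ± 8.85 CPM, SD, n = 4; edgeR adjusted p = 0.000113), Arhgef17, a guanine nucleotide exchange factor (57.4 ± 2.43 to 45.4 ± 4.73 CPM; adjusted p = 0.000174), and Myof, the membrane-repair protein myoferlin (1108 ± 28 to 953 ± 59.6 CPM; adjusted p = 0.0021).

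**Figure D5:**
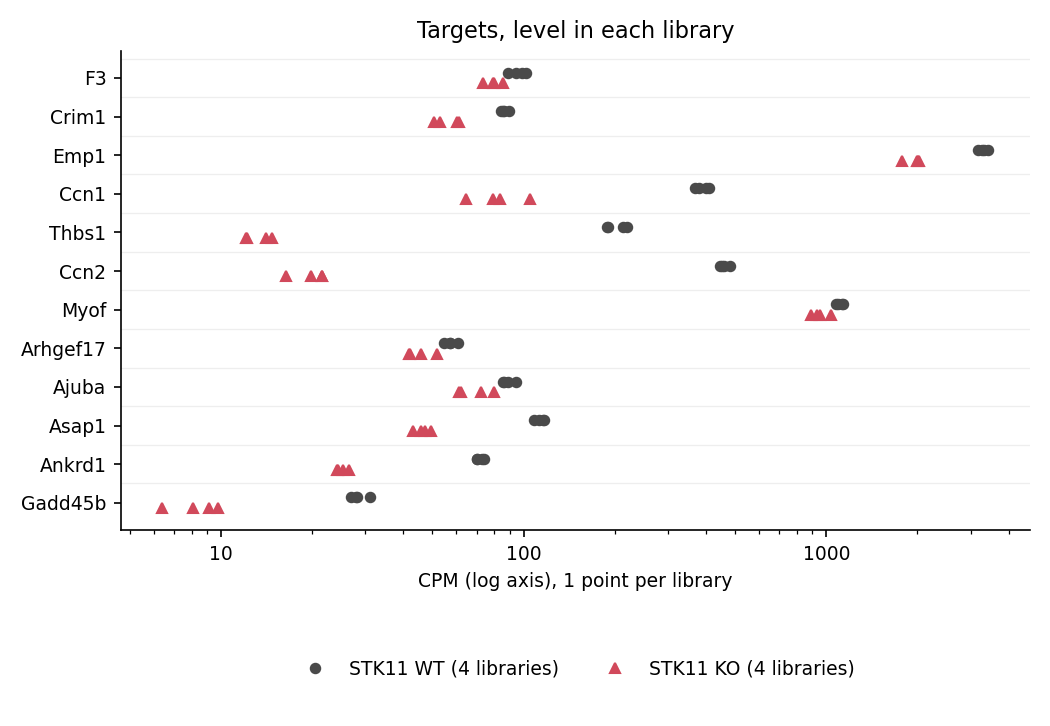
Level of the 12 tested targets (y axis) in CPM on a log axis (x axis), with 1 grey circle per parental and 1 red triangle per knockout library. The triangles lie to the left of the circles in each row, with the widest gaps for Ccn2 and Thbs1 and narrow ones for Myof, F3 and Arhgef17.

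Promoter windows show which of these genes carry the TEAD motif close to the start site. RefSeq windows of 300 bases (250 before to 50 after the start, GRCm38.p6) were at hand for 27 of the 36 members, and Ccn2, Thbs1, Asap1, Arhgef17, Dlc1, Fjx1, Stk3, Tead1 and Tead4 were not among them. The letters GGAATG, searched on both strands, were in a window of 14 of these 27 genes, beside 16.6% of all 27025 genes with a window. By window this was 16 of 33, beside 14.7% of all 32851 windows. It was found in 5 of 9 targets and 9 of 18 components. The longer form GGAATGT, which contains the shorter one, was in windows of 6 of the 27 (Ajuba, Amotl2, Ccn1, Tead3, Vgll3 and Yap1), beside 4.47% of all genes. Emp1, F3, Gadd45b and Myof fell without GGAATG in their windows, and so did the components Tead2, Wwc1, Nf2 and Amot. Those that fell with it were Ajuba, Ankrd1, Ccn1, Crim1, Amotl2, Lats2, Tead3 and Yap1. Mob1a and Vgll4 rose with it, and Lats1, Mob1b and Amotl1 rose without it. Of the genes that did not pass, Sav1 and Wwtr1 had it and Stk4 and Frmd6 did not. The 250 bases before the start are printed for 3 targets that fell (Ccn1, Ankrd1 and Ajuba) and for Amotl2, the component that is also a target, on the strand of the gene, 5′ to 3′, with the motif in capitals as it reads on that strand (GGAATG or its reverse complement CATTCC).
Ccn1, chr3:145649986-145650235, minus strand: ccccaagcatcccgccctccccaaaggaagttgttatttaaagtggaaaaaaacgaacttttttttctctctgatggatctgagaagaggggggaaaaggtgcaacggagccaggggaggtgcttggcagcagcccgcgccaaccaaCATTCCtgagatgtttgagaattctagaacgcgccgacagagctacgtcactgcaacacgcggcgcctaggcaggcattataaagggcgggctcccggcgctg
Ankrd1, chr19:36119845-36120094, minus strand: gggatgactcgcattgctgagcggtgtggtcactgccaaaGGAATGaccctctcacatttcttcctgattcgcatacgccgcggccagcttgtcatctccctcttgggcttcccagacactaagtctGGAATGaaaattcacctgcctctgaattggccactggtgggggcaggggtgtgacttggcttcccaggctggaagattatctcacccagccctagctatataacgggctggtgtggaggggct
Amotl2, chr9:102717554-102717803, plus strand: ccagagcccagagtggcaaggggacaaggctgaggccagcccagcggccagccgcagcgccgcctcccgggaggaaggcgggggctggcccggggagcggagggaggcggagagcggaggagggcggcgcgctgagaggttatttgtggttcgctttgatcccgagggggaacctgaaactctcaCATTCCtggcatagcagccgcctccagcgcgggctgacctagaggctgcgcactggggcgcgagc
Ajuba, chr14:54577662-54577911, minus strand: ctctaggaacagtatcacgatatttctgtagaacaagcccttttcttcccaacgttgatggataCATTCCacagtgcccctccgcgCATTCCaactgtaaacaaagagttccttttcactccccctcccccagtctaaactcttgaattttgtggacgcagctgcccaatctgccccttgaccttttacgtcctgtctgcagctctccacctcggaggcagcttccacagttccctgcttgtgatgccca
The motif starts at position -103 from the start site in Ccn1, at -210 and -123 in Ankrd1, at -65 in Amotl2 and at -186 and -164 in Ajuba. Ccn1, Amotl2 and Ajuba carry it as CATTCC and Ankrd1 as GGAATG. Ankrd1, with 2 copies, was left at 35% of the parental level and Ajuba, also with 2, at 77.6%, while Ccn1 and Amotl2, with 1 each, were left at 21.2% and 30.5%. A match of letters is no measurement of binding.

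A further 4 members were below the filter on low counts and not tested. Ptpn14, a phosphatase that binds YAP and restrains it, had 38 counts in the parental and 1 count in the knockout group (0.286, 0.417, 0.55 and 0.567 CPM against 0, 0, 0.0388 and 0 CPM), a parental-to-knockout ratio of 40.2 with an exact 95% counting interval of 6.8 to 1631. Beyond Vgll3, Fjx1, a secreted kinase-like regulator of planar polarity, had 3 and 2 counts in the groups, and Dlc1, a GTPase-activating protein, had 1 and 0. For Vgll3, Fjx1 and Dlc1 a difference was not detectable at this depth.

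Other genes of the pathway were taken from a list of 33 upstream and associated components. Of the 26 tested, 13 rose, 9 fell and 4 did not pass (median 0.15 on the log2 scale). Of all tested genes 34.4% rose and 33.6% fell. With library size as the only scaling, 10 were called higher and 11 lower, beside 3921 higher and 5280 lower of all 13707 tested genes. Rassf1, an MST-binding scaffold gene, rose from 56.2 ± 5.07 to 88.1 ± 9.85 CPM (SD, n = 4; edgeR adjusted p = 1.64e-07), and the polarity gene Patj rose 1.52-fold. Fat1, a giant protocadherin, fell from 595 ± 32.1 to 322 ± 32.2 CPM (edgeR adjusted p = 5.22e-11). The polarity gene Dlg1 and Limd1, a LIM protein related to Ajuba, fell 1.38-fold and 1.34-fold. Vgll1, Vgll2 and Fat4 had no count in any library.

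Of 17 further genes described as YAP-TEAD targets, 12 were tested, of which 9 fell, 2 rose and 1 did not pass (median -0.40 on the log2 scale). Of all tested genes 33.6% fell and 34.4% rose. At least 2-fold, 1 of the 12 fell and 2 rose, beside 9.41% and 7.02% of all tested genes. Igfbp3, an IGF-binding protein, fell from 75.3 ± 5.26 to 13.2 ± 2.53 CPM (SD, n = 4; edgeR adjusted p = 4.28e-14). Nuak2, an AMPK-related kinase that LKB1 activates, fell 1.98-fold and Ddah1, an enzyme of methylarginine breakdown, 1.96-fold. Areg, the EGF receptor ligand amphiregulin, was among those that rose, at 151, 150, 153 and 152 CPM in parental and 376, 348, 288 and 330 CPM in knockout libraries (log2 fold change 1.15 ± 0.06, SE; edgeR adjusted p = 4.48e-13). The lines did not overlap for Areg.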

How the data were processed

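RNA of 4 parental and 4 Stk11 knockout cultures (100 ng per library) went through a strand-keeping Illumina mRNA kit and was read as pairs of 51 bp, per the labels' protocols. Build GRCm39 and the tools STAR 2.7.9a, FastQC 0.11.8, limma, edgeR and featureCounts 1.6.0 come from the submitters' processing notes. Handling of strand and of multiply mapped reads was not given in the sources used here, so overlapping genes and close copies (such as Mob1a and Mob1b) may share or lose reads.

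The authors deposited raw counts per gene and, for 15726 genes, log2 CPM values in voom's form, which contain all 13707 genes tested here. The raw counts were tested with edgeR 4.0.16 (quasi-likelihood, robust, TMM scaling, default filterByExpr, genotype as the only term; R 4.3.3), adjusted by Benjamini-Hochberg over 13707 genes, and called where the adjusted p was below 0.05. The words "rose" and "fell" mean called. The SE is the absolute log2 fold change over the square root of F. CPM are counts over TMM-scaled library sizes. Levels per kilobase use exon lengths of GENCODE M21, and promoters are RefSeq's (GRCm38.p6). Counting intervals and floors (3 counts) cover counting error only. A single value was tested by exact permutation (scipy 1.17.1).

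Members, roles and lists were chosen with earlier results of these data known. By rule, Stk11 and all members are named, members past the test at 2-fold with at least 5 CPM and the coactivators and TEADs by library (a few others are too), and up to 3 risers and 3 fallers of each further list with at least 5 CPM. Some genes under this rule are not reported here. Alternatives were 3 scalings, 2 filters, DESeq2 1.42.0, limma-voom and limma 3.58.1 on the deposited values, the replicate number as a block, and leaving out each library. The edgeR steps were tested on simulated data in which far fewer genes changed than were called here, so that test does not cover a difference this broad.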

Additional observations from a re-analysis of the deposited data

Results flagged for a closer look

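Within a line, 1 library stood apart from the other 3 for 6 of the 66 groups of 4 values examined (Stk11 and the 32 tested members in each line), where the gap to its neighbour took 0.839 to 0.941 of the group's range; chance gives about 1 in 20 groups. In the knockout line, replicate 3 was high for Stk4 (58.4 CPM, the others 53.5 to 53.8), Wwc1 (167 CPM, 145 to 147) and Amotl2 (37.7 CPM, 30.0 to 31.0) and low for Emp1 (1774 CPM, 1989 to 2030). Knockout replicate 1 was low for Mob1a (317 CPM, 336 to 339). Parental replicate 4 was high for Tead3 (16.5 CPM, 15.8 to 15.9). Each of these genes stayed on its side of the threshold when any 1 library was left out.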

How the results depend on the processing

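Over 17 alternatives, 25 of the 32 tested members kept their direction and their side of the threshold throughout, and so did Stk11 (log2 fold change -1.02 to -0.91). The 12 tested targets were called lower in every alternative, and Ptpn14 also was with no filter, by DESeq2 and on the deposited values; Fjx1 and Dlc1 were not called with no filter, and DESeq2 gave them no adjusted p. Among components the number called stayed at 14 or 15. Genes that changed sign did not pass in any of those fits: by library size alone Stk3 (-0.01), Sav1 (-0.07) and Frmd6 (-0.08), by upper quartile Frmd6 (-0.01), and with a library left out Stk4 (range -0.05 to 0.00), Sav1 (-0.01 to 0.05) and Frmd6 (-0.01 to 0.04); the cause was not tested. Library size alone shifted all genes by a median of -0.08. The labels do not say that replicate numbers pair the libraries. Correlations of deviations were -0.0985 to 0.0356 for same-numbered libraries and -0.0913 to 0.102 for the others. These values show no shared deviation by number but cannot tell whether same-numbered cultures were handled together. With the number as a replicate block 15 components, 12 targets and 9182 genes passed, beside 9322. Vgll3, Fjx1, Dlc1 and Ptpn14 were below the default filter.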
